A study of Mus musculus with 18 samples.

Results

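The ALK ligands and receptors of the mouse are 4 genes, *Alkal2* and *Alkal1* for the ligands and *Alk* and *Ltk* for the receptors, and all 4 were found by symbol among the 36737 genes of the count table. *Alkal2* was chosen on its values, because it had the largest rise among the genes with the smallest p-values in both comparisons with sham, so those rises are given below as a description with no test. *Alkal1*, *Alk* and *Ltk* were taken as its family and not for their levels. L3–L5 DRG came from outbred CD1 mice and were profiled by bulk RNA-seq. Each of 3 groups held 3 female and 3 male mice, and every mouse had its own library. The groups were Sham (sham surgery), Fracture (tibial fracture with vehicle) and Fracture+PDX (tibial fracture with protectin DX, a lipid mediator made from the omega-3 fatty acid DHA). The ganglia of both fracture groups were taken on day 3 after surgery. The day for the sham mice and the PDX dose given to these mice are not stated in the sources used here. The libraries held from 63235040 to 82824942 gene counts.

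ALK and LTK are related receptor tyrosine kinases that sit in the cell membrane. The secreted ligands ALKAL1 and ALKAL2 bring receptor chains together, which phosphorylate each other and recruit adaptors of the SHC, FRS and IRS families, and these feed the ERK, PI3K and AKT, and JAK and STAT branches. ALKAL2 is known as the high-affinity ligand of ALK, whereas ALKAL1 binds LTK well. In sensory ganglia, ALKAL2 and ALK have been placed in nociceptors, the neurons that report damage, where ALK signaling raises excitability.

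Markers of the labelled tissue were present in every group. The 8 DRG neuron markers summed to 10137–10781 CPM (counts scaled by edgeR to library size) in Sham, 11532–12099 CPM in Fracture and 10959–12531 CPM in Fracture+PDX. Of these markers, 3 of 8 were higher in Fracture and 2 of 8 in Fracture+PDX than in Sham at an edgeR adjusted p-value under 0.05, beside 1.09% and 2.17% of all genes tested. Genes of other tissues were present as well. The 8 skeletal muscle markers summed to 24.0–589.6 CPM in Sham, 48.9–1144 CPM in Fracture and 12.6–526.7 CPM in Fracture+PDX, and none of the 8 passed the test in any comparison. The 8 placenta genes summed to 164–546 CPM in Sham, 28.7–255 CPM in Fracture and 26.8–132 CPM in Fracture+PDX, so the 2 last groups lay mostly under Sham, and 1 of 8 (Fracture) and 7 of 8 (Fracture+PDX) were called lower than in Sham, beside 1.83% and 2.32% of all genes tested. Of 6 macrophage markers, 2 and 1 were called lower. No marker of these lists was at 0 counts in all libraries of a group. Fits below take the mean placenta signal as a covariate, and a correlation takes the mean of the skeletal muscle list. The part of these tissues in the results was not tested further. In bulk ganglia, more cells of a type and more RNA per cell cannot be told apart.

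*Alkal2* (ENSMUSG00000054204) lies on the plus strand of mm10 at chr12:30884322-30893854, and its coding transcript has 5 exons and 1509 exonic bases, of which 453 are coding. Its 3′ end shares 529 exonic bases with *Acp1*, a phosphatase gene on the opposite strand (chr12:30893326-30911589). The libraries were strand-specific, and the strand setting used for counting is not given in the sources used here. The 250 bases before the RefSeq start of *Alkal2* (GRCm38.p6, plus strand, chr12:30884074-30884323) are shown because *Alkal2* is the member that moved and because the same motifs were searched in genes of axon injury. Capitals mark the single match to the searched motifs.
Alkal2 upstream: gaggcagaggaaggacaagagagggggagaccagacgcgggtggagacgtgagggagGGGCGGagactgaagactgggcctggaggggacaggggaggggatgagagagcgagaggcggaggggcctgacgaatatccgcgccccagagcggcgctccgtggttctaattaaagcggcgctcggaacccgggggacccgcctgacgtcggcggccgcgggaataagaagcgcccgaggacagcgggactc

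The match is the SP1 motif GGGCGG, whose first base is at −193 from the start, and which 32.7% of the 32851 windows of this length held. The window held no match on either strand to the AP-1 motif TGANTCA (6.75% of windows), the CRE motif TGACGTCA (1.55%), the CARE motif TGATGNAA (3.45%), the STAT motif TTCNNNGAA (7.02%), the E-box CACGTG (6.02%) or TATAAA (12.4%). Its GC content was 68.0%. Of the 9 axon injury genes with a window, 1 held the AP-1 letters (*Sprr1a*), 1 the CARE letters (*Atf3*) and 7 the SP1 letters. These are matches of letters and say nothing of binding.

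*Alkal2* mRNA was low in Sham and higher in every mouse with a fracture. In Sham, the females had 4.94, 2.87 and 3.18 CPM and the males 3.75, 2.33 and 2.46 CPM. In Fracture, the females had 9.33, 10.02 and 8.49 CPM and the males 7.74, 10.3 and 9.53 CPM. In Fracture+PDX, the females had 12.4, 12.5 and 9.77 CPM and the males 7.73, 8.52 and 6.37 CPM. All 6 mice of either fracture group lay above the highest Sham mouse, and the lowest Fracture mouse had 1.57 times and the lowest Fracture+PDX mouse 1.29 times its level. The group means were 3.26 ± 0.973 CPM in Sham, 9.23 ± 0.950 CPM in Fracture and 9.54 ± 2.49 CPM in Fracture+PDX (SD, n = 6).

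The fitted log2 fold change of *Alkal2* was 1.51 ± 0.16 (SE) for Fracture against Sham, a fold of 2.85 (95% interval 2.24–3.63). For Fracture+PDX against Sham it was 1.54 ± 0.16, a fold of 2.90 (95% interval 2.28–3.70). These intervals describe the spread and, since the gene was picked for these rises, are no test. Both comparisons share the same 6 Sham libraries. *Acp1*, which shares its 3′ end, had log2 fold changes of 0.05 ± 0.04 and 0.06 ± 0.03 (SE) in the same comparisons. A covariate for the mean placenta signal was added after seeing the data. With it, the *Alkal2* difference was 1.36 (Fracture) and 1.46 (Fracture+PDX) on the log2 scale, without a call in either comparison. That covariate itself differed between the groups, and the lost call is given as a limit and is no test of these rises.

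**Figure D1:**
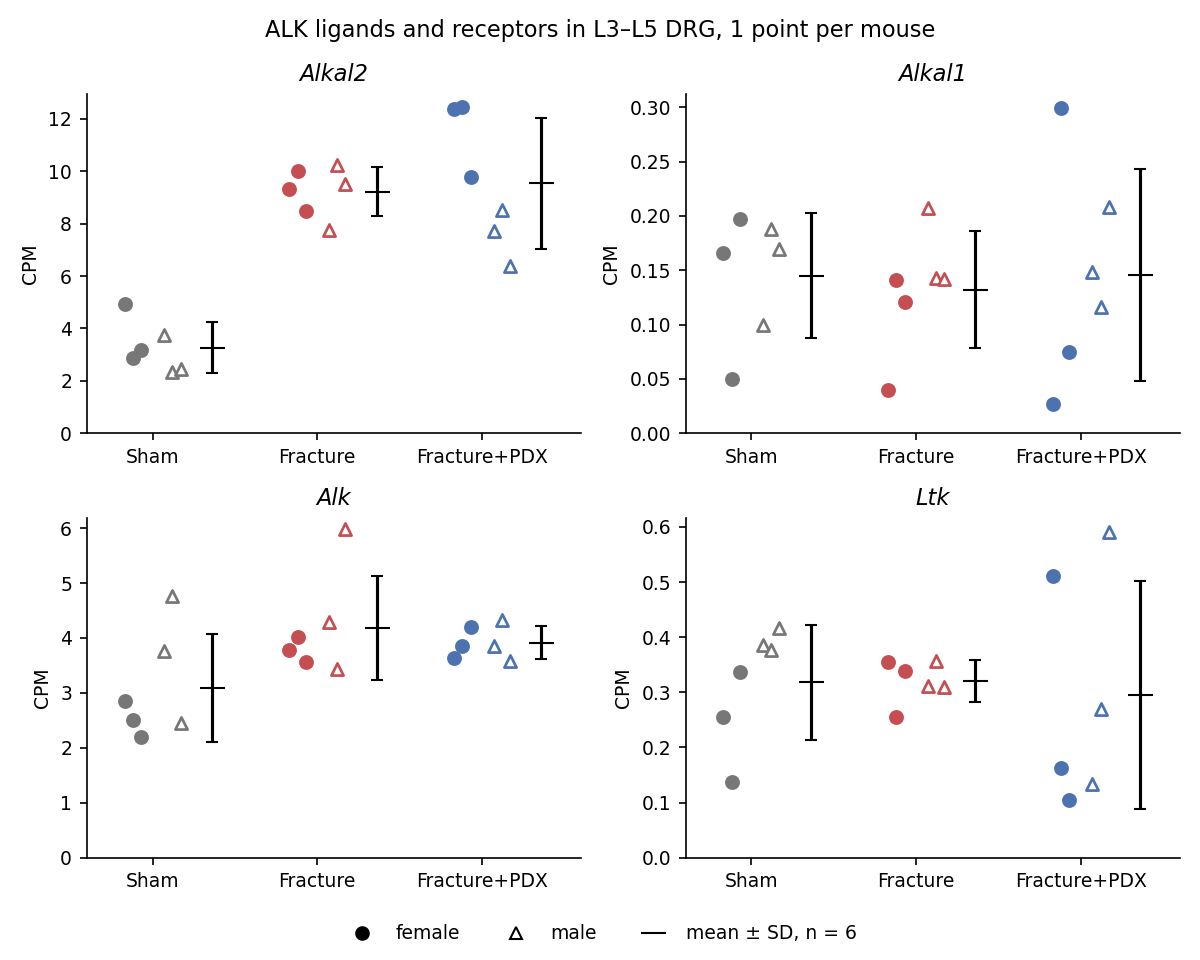
Expression in CPM (vertical axes, linear from 0) of *Alkal2*, *Alkal1*, *Alk* and *Ltk* in each mouse of the Sham, Fracture and Fracture+PDX groups, with filled circles for females, open triangles for males and bars for the mean ± SD of 6 mice. *Alkal2* lies between 2.33 and 4.94 CPM in Sham and above 6 CPM in every mouse of both fracture groups, while the ranges of the 3 other genes overlap.

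*Alkal2* was chosen for its rise in both fracture groups against Sham, so a comparison of these 2 groups rests on levels that the choice used, and its values are given as a description. The levels of the 2 fracture groups overlapped, with 2 of 6 Fracture+PDX mice above and 2 of 6 below every Fracture mouse. The log2 fold change was 0.02 ± 0.13 (SE), with a 95% interval of the fold from 0.841 to 1.23. Of 20562 genes tested in this comparison, 0 (0%) passed the adjusted threshold of 0.05 and 1113 an unadjusted threshold of 0.05. The coefficient of variation of *Alkal2* between mice was 29.9% in Sham, 10.3% in Fracture and 26.1% in Fracture+PDX, where counting alone gives 6.4%, 3.8% and 3.8%.

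In Fracture+PDX the female and male means of *Alkal2* were 11.5 ± 1.53 and 7.54 ± 1.09 CPM (SD, n = 3). In Fracture they were 9.28 ± 0.762 and 9.18 ± 1.29 CPM. All 3 Fracture+PDX females lay above all 3 males of that group (exact permutation p = 0.1, the smallest possible with 3 against 3). How many of all genes part the sexes in this way was not counted. Within females, Fracture+PDX differed from Fracture by 0.32 ± 0.13 on the log2 scale, and within males by −0.28 ± 0.15 (SE). *Alkal2* was chosen by differences over both sexes, and the interaction of sex with group is a separate contrast. The difference between these effects was 0.61 ± 0.20 in edgeR's interaction test (unadjusted p = 0.00997, adjusted p = 0.998 over all genes), so it did not pass the adjusted threshold. An exact permutation of group labels within each sex (400 assignments) gave p = 0.03, and adjusted over the 12 such tests of the 4 genes 0.33, which also missed the threshold.

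**Figure D2:**
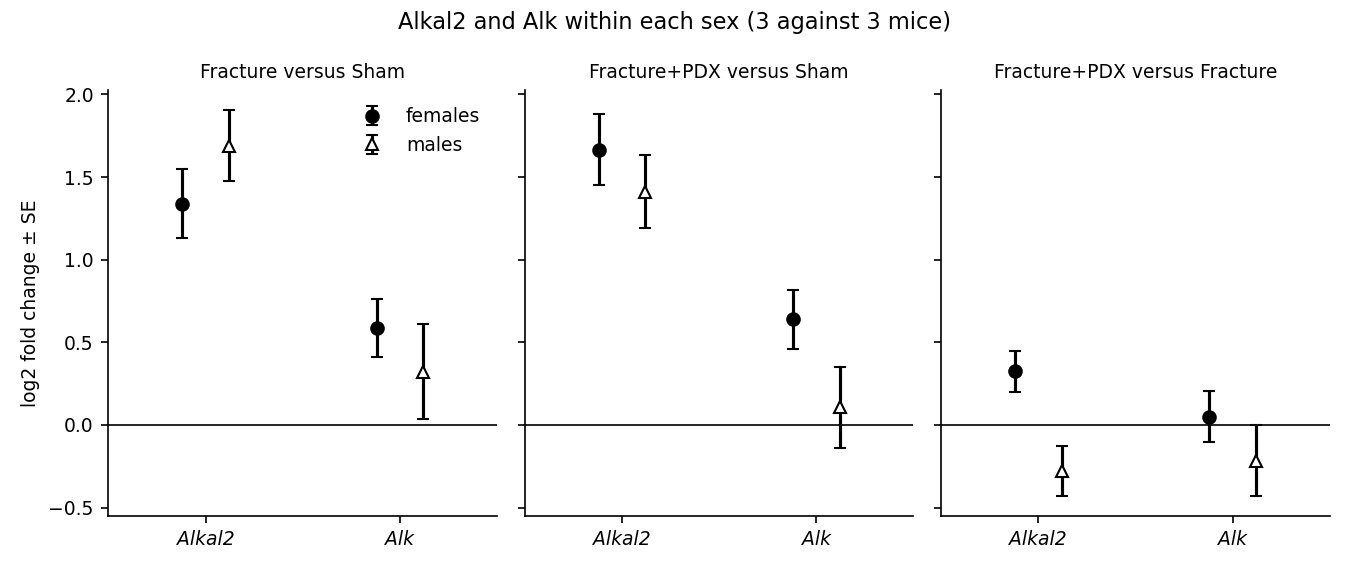
Fitted log2 fold changes ± SE (vertical axis) of *Alkal2* and *Alk* within females (filled circles) and within males (open triangles), 3 against 3 mice, for the 3 comparisons. *Alkal2* was above Sham in both sexes (1.34 and 1.69 for Fracture, 1.67 and 1.41 for Fracture+PDX) and had opposite signs in females and males for Fracture+PDX against Fracture (0.32 and −0.28).

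Across all 3 groups, *Alkal2* was higher in females by 0.33 on the log2 scale, made up of 0.35 for the Sham mice, 0.02 for the Fracture mice and 0.61 for the Fracture+PDX mice. Exchange of the sex labels within groups gave an exact permutation p = 0.0315, or 0.0945 adjusted over 3 genes. *Alk* was lower in females by 0.24 (female minus male −0.24, exact permutation p = 0.0983, adjusted 0.147) and *Ltk* by 0.38 (−0.38, exact permutation p = 0.21, adjusted 0.21). None of the 3 sex differences passed the adjusted threshold. For Fracture against Sham, the sex by group interaction of *Alkal2* was −0.35 ± 0.31 (edgeR adjusted p = 0.861), and for Fracture+PDX against Sham 0.25 ± 0.32 (edgeR adjusted p = 0.932).

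*Alkal1* (ENSMUSG00000087247, chr1:6359218-6394731, plus strand), the second ligand gene, was near the floor of detection in every group. Its coding transcript has 5 exons and 971 exonic bases. It had 4–15 counts per library in Sham, 3–16 in Fracture and 2–22 in Fracture+PDX. The lowest, median and highest levels were 0.0497, 0.167 and 0.197 CPM in Sham, 0.0395, 0.141 and 0.207 CPM in Fracture, and 0.0269, 0.132 and 0.299 CPM in Fracture+PDX. The groups overlapped throughout.

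The log2 fold change of *Alkal1* was −0.16 ± 0.44 (SE) for Fracture against Sham (edgeR adjusted p = 0.898), 0.01 ± 0.53 for Fracture+PDX against Sham (adjusted p = 0.997) and 0.16 ± 0.53 for Fracture+PDX against Fracture (adjusted p = 0.996). Exact permutation tests of log2 CPM gave p = 0.725, 0.781 and 0.955 (two-sided, 924 assignments, smallest possible p 0.00216). The 95% intervals of the fold ran from 0.466 to 1.73, 0.456 to 2.22 and 0.512 to 2.45, and these data do not tell changes within these intervals apart. Counting alone gives a coefficient of variation of 30.2% in Sham, against 39.9% between mice.

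*Alk* (ENSMUSG00000055471, chr17:71868972-72604307, minus strand), the receptor with high affinity for ALKAL2, is a long gene whose coding transcript has 29 exons and 5454 exonic bases. The Sham females had 2.85, 2.51 and 2.19 CPM and the Sham males 3.77, 4.77 and 2.45 CPM. The Fracture females had 3.77, 4.02 and 3.57 CPM and the Fracture males 4.30, 3.43 and 5.99 CPM. The Fracture+PDX females had 3.63, 3.86 and 4.19 CPM and the Fracture+PDX males 3.86, 4.33 and 3.58 CPM. The range of the Sham mice overlapped those of both fracture groups. Among females alone, 3 against 3, the exact permutation test gave p = 0.1 for each comparison with Sham, the smallest p possible.

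The group means of *Alk* were 3.09 ± 0.989 CPM in Sham, 4.18 ± 0.939 CPM in Fracture and 3.91 ± 0.300 CPM in Fracture+PDX (SD, n = 6). Its log2 fold change was 0.45 ± 0.17 (SE) for Fracture against Sham, with an edgeR adjusted p = 0.174 (unadjusted 0.0199). For Fracture+PDX against Sham it was 0.37 ± 0.16 (edgeR adjusted p = 0.255, unadjusted 0.0423). The 95% intervals of the fold ran from 1.06 to 1.77 and from 1.01 to 1.65. Exact permutation tests gave p = 0.0498 and 0.0563, and both were 0.281 when adjusted over the 10 such tests of the 4 genes. The receptor therefore did not pass the adjusted threshold in either comparison. The background was that 603 of 20659 genes (2.92%) were called for Fracture against Sham and 925 of 20574 (4.50%) for Fracture+PDX against Sham. With the placenta genes as a covariate, the *Alk* differences were 0.24 and 0.20.

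Between the fracture groups, *Alk* differed by −0.08 ± 0.13 (SE, edgeR adjusted p = 0.987), with a 95% interval of the fold from 0.777 to 1.14. The exact permutation test gave p = 0.688. Within females the *Alk* differences from Sham were 0.59 ± 0.17 for Fracture and 0.64 ± 0.18 for Fracture+PDX, and within males 0.32 ± 0.29 and 0.11 ± 0.24 (log2, SE). The interaction of sex with group was 0.26 ± 0.35 (edgeR adjusted p = 0.913) and 0.53 ± 0.31 (edgeR adjusted p = 0.790), so the sexes were not shown to differ.

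*Ltk* (ENSMUSG00000027297, chr2:119751320-119760431, minus strand), the second receptor gene, has a coding transcript of 20 exons and 3080 exonic bases. It had 7–38 counts per library over all 18 libraries. The lowest, median and highest levels were 0.137, 0.357 and 0.416 CPM in Sham, 0.256, 0.325 and 0.356 CPM in Fracture, and 0.104, 0.216 and 0.591 CPM in Fracture+PDX. The Fracture+PDX mice covered the whole range of the other two groups, with 2 mice above and 2 mice below every Sham mouse.

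The log2 fold change of *Ltk* was 0.05 ± 0.29 (SE) for Fracture against Sham (edgeR adjusted p = 0.953), −0.07 ± 0.45 for Fracture+PDX against Sham (adjusted p = 0.962) and −0.12 ± 0.42 for Fracture+PDX against Fracture (adjusted p = 0.996). Exact permutation tests gave p = 0.818, 0.541 and 0.372. The 95% intervals of the fold ran from 0.677 to 1.58, 0.489 to 1.85 and 0.490 to 1.72. The coefficient of variation between mice was 70.1% in Fracture+PDX, against 33.0% in Sham and 11.8% in Fracture. Counting alone gives 21.9%, 20.4% and 20.1% in these groups, so the Fracture value lies under that of counting.

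**Figure D3:**
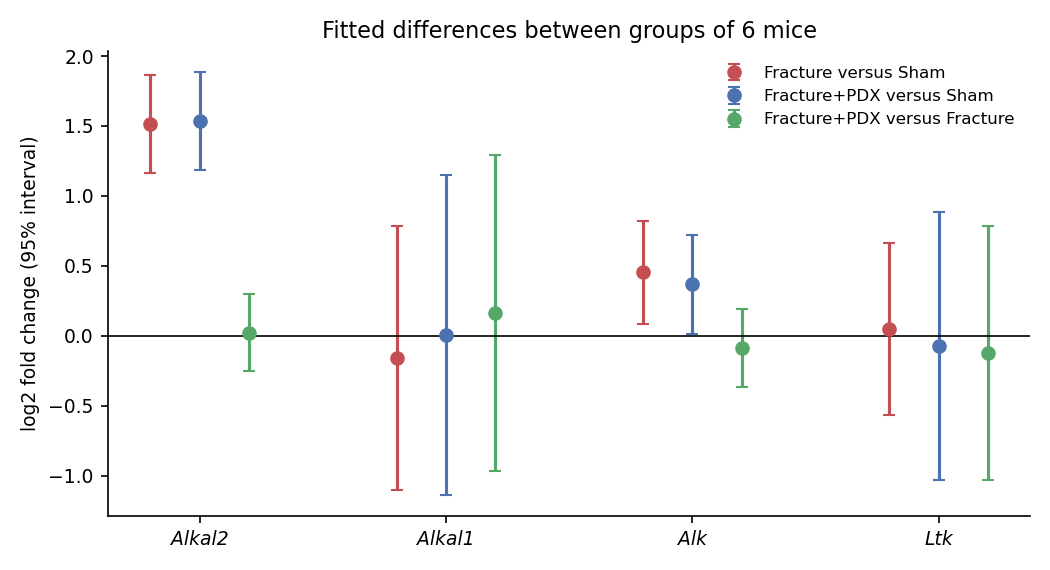
Fitted log2 fold changes (vertical axis) of the 4 genes with 95% intervals, for Fracture against Sham, Fracture+PDX against Sham and Fracture+PDX against Fracture, each over 6 against 6 mice. *Alkal2* stands at 1.51 and 1.54 against Sham and 0.02 between the fracture groups, and the intervals of *Alkal1* and *Ltk* span 0 in all 3 comparisons.

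On the FPKM scale, which is per transcript length and allows genes to be set side by side, the order in Sham was *Alkal2* (1.96 ± 0.605 FPKM), *Alk* (0.360 ± 0.114), *Alkal1* (0.128 ± 0.048) and *Ltk* (0.0767 ± 0.027; SD, n = 6). The ranges of *Alkal2* and *Alk* did not overlap in Sham (1.39–3.02 against 0.25–0.55 FPKM), nor did those of *Alk* and *Alkal1* (0.05–0.17 FPKM). *Alkal1* and *Ltk* (0.03–0.10 FPKM) overlapped, so their order is not fixed by these mice. The ratio of *Alkal2* to *Alk* FPKM within a mouse ran over 2.53–8.88 (median 5.54) for Sham, 8.14–15.5 (median 12.5) for Fracture and 9.22–17.4 (median 11.1) for Fracture+PDX. This ratio contains the *Alkal2* rise and is a description.

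Of 71 genes of the pathway around ALK, in 6 lists by role, 2 were called for Fracture against Sham (2.82%, beside 2.92% of all genes tested), 5 for Fracture+PDX against Sham (7.04%, beside 4.50%) and 0 for Fracture+PDX against Fracture. All called genes were higher. DESeq2 called 4 and 10 of the 71 genes against Sham, beside 1476 and 1580 of all genes, where edgeR called 603 and 925. With a block for mice of the same sex and number, edgeR called 0 and 3, so the calls for Fracture described below were lost. The block lowered the counts over all genes as well, as given in the last section. The median log2 fold change of the 71 genes was 0.01, 0.02 and 0.01, beside medians of 0.0021, −0.0013 and −4.5e-05 over all genes tested. With that mean placenta signal in the model, which itself differed between the groups, 1 gene of all those tested was called for Fracture against Sham and 0 for Fracture+PDX against Sham, against 603 and 925 without it.

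The receptor partners hold the ligands pleiotrophin and midkine, the phosphatase receptors that oppose ALK and the ubiquitin ligases that remove it. Of these 8 genes, 0 were called in any comparison. The smallest p-values belonged to *Ptprb*, a vascular receptor phosphatase (−0.26 ± 0.08 for Fracture against Sham, edgeR adjusted p = 0.106), and to *Ptprz1*, a receptor of pleiotrophin (0.19 ± 0.05 for Fracture+PDX against Sham, adjusted p = 0.0693).

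Of 18 adaptors, which couple phosphorylated receptors to the cascades, 1 was called for Fracture and 2 for Fracture+PDX against Sham. *Shc2*, an adaptor of neurons, rose by 0.15 ± 0.03 in Fracture (edgeR adjusted p = 0.0171) and by 0.15 ± 0.03 in Fracture+PDX (adjusted p = 0.0136). *Irs2*, an adaptor shared with the insulin receptor, rose by 0.31 ± 0.05 in Fracture+PDX (edgeR adjusted p = 0.00447). Between the fracture groups the smallest p-value was that of *Shc3*, another adaptor of neurons (0.32 ± 0.11, edgeR adjusted p = 0.887).

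Of 14 genes of the ERK cascade and 12 of the PI3K and AKT branch, 0 were called in any comparison. The smallest p-values against Sham were those of *Map2k2*, the kinase that phosphorylates ERK (0.11 ± 0.04 in Fracture and 0.11 ± 0.04 in Fracture+PDX, edgeR adjusted p = 0.142 and 0.195), and *Mtor*, the kinase downstream of AKT (0.10 ± 0.03 and 0.11 ± 0.04, edgeR adjusted p = 0.142 and 0.116). Between the fracture groups they were *Braf*, a kinase at the top of the ERK cascade (−0.05 ± 0.03, edgeR adjusted p = 0.923), and *Foxo3*, a transcription factor held back by AKT (−0.08 ± 0.04, adjusted p = 0.917).

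Of 4 genes of the JAK and STAT branch, *Stat3*, a transcription factor that JAK kinases activate, was called for Fracture+PDX against Sham (0.14 ± 0.03, edgeR adjusted p = 0.0337). Its values were 0.10 ± 0.03 in Fracture against Sham (edgeR adjusted p = 0.127) and 0.05 ± 0.03 between the fracture groups (adjusted p = 0.949). Of 15 genes of ERK feedback and transcriptional output, *Ret*, the receptor kinase of the GDNF family, rose by 0.13 ± 0.03 in Fracture (edgeR adjusted p = 0.0283) and by 0.20 ± 0.03 in Fracture+PDX (adjusted p = 0.00251). *Vgf*, a secreted neuropeptide precursor, rose by 0.68 ± 0.12 in Fracture+PDX against Sham (edgeR adjusted p = 0.0122), and had the smallest p-value of its list between the fracture groups (0.34 ± 0.11, adjusted p = 0.887). The other genes of the list were not called in any comparison.

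**Figure D4:**
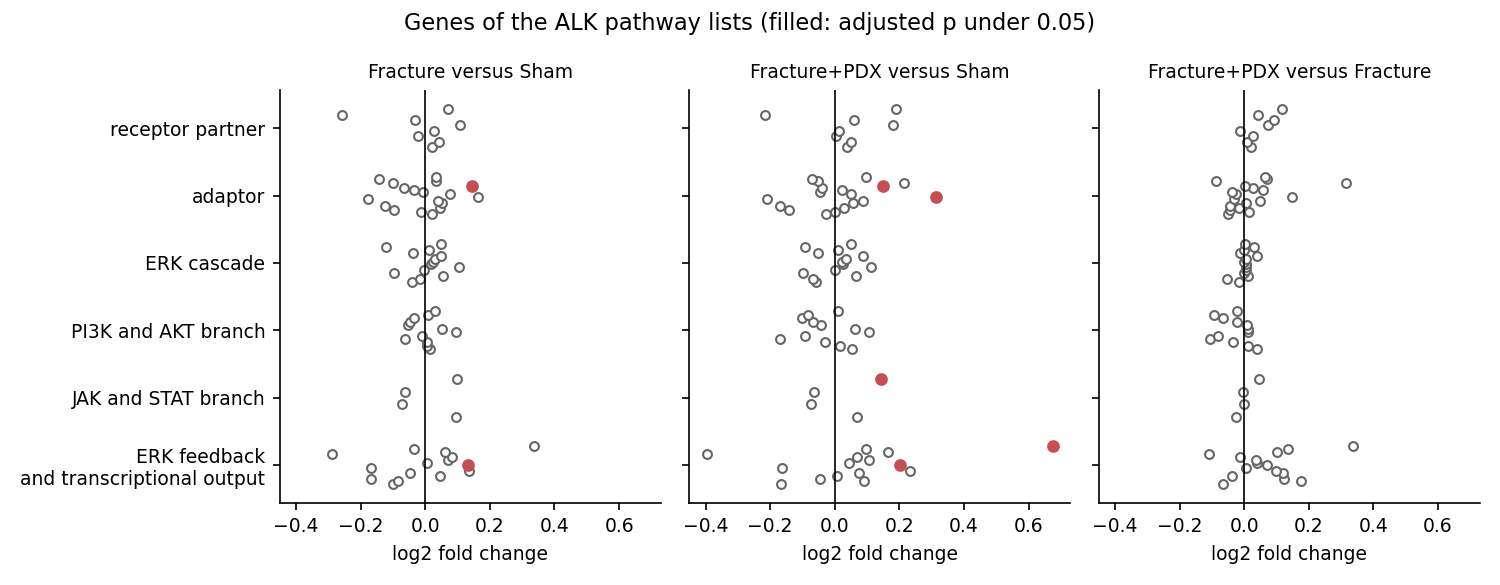
Log2 fold changes (horizontal axes) of the 71 genes of the 6 ALK pathway lists (vertical axis) in the 3 comparisons, 1 circle per gene, filled where the edgeR adjusted p-value was under 0.05. Filled circles number 2 for Fracture against Sham, 5 for Fracture+PDX against Sham and 0 between the fracture groups, and all lie to the right of 0.

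The axon injury list holds 10 genes known to rise in sensory neurons whose axons are cut. It was taken up with results of these data known and gives no independent support. Of its genes, 6 of 10 were called higher for Fracture and 7 of 10 for Fracture+PDX against Sham (1.09% and 2.17% of all genes tested were called higher), with median log2 fold changes of 1.09 and 1.49. *Atf3*, a transcription factor of injured neurons, rose by 1.65 ± 0.25 (edgeR adjusted p = 0.0141) and 2.21 ± 0.26 (adjusted p = 0.00260). *Sprr1a*, a small protein of regrowing axons, rose by 3.83 ± 0.81 and 4.93 ± 0.78, and *Npy*, a neuropeptide, by 2.51 ± 0.55 and 3.29 ± 0.58.

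Male 2 of the Fracture group stood apart in several of these genes. It had 61.3 CPM of *Sprr1a*, where the 5 other Fracture mice had 3.18–10.6 CPM. It had 8.56 CPM of *Npy* against 0.931–2.10 CPM, 8.10 CPM of *Ecel1* against 1.35–3.39 CPM and 107 CPM of *Gal* against 12.2–27.8 CPM. Without this mouse, an alternative chosen after seeing the data, 3 of 10 genes were called for Fracture against Sham. *Sprr1a* was then at 2.6 ± 0.49 (edgeR adjusted p = 0.0388), *Npy* at 1.70 ± 0.40 (adjusted p = 0.0548) and *Ecel1* at 1.40 ± 0.37 (adjusted p = 0.0774). The count for Fracture also fell without other libraries. It was 1 without Sham male 2, Sham male 3, Sham female 1 or Fracture female 3, 2 without Sham female 2 or Fracture female 2, and 3 without Sham male 1, Sham female 3 or Fracture female 1. *Atf3* was called for Fracture whichever of the 12 libraries was left out. For Fracture+PDX the count was 6–8 of 10 without 1 library, and *Gal* lost its call when any 1 of 7 libraries was left out.

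*Ecel1*, an endopeptidase of injured neurons, rose by 1.96 ± 0.46 and 2.97 ± 0.52, *Gadd45a*, a stress gene, by 0.76 ± 0.15 and 1.01 ± 0.17, and *Sox11*, a transcription factor of axon growth, by 0.39 ± 0.09 and 0.74 ± 0.14. *Gal*, the neuropeptide galanin, was called for Fracture+PDX only (1.96 ± 0.40) and had 1.41 ± 0.55 in Fracture, and that difference between the groups was 0.55 ± 0.73 (edgeR adjusted p = 0.983). *Csf1*, a growth factor of macrophages, had 0.06 ± 0.12 and 0.25 ± 0.10, *Gap43*, a growth cone protein, 0.21 ± 0.08 and 0.23 ± 0.07, and *Jun*, a transcription factor of the AP-1 group, 0.01 ± 0.05 and 0.15 ± 0.06, without a call. The *Alkal2* differences of 1.51 and 1.54 thus stood between those of *Gadd45a* and *Atf3* in size. Between the fracture groups 0 of the 10 were called.

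The genes whose standardised log2 CPM profile over the 18 libraries was most like that of *Alkal2*, by root mean square difference among 15799 genes with a mean of at least 1 CPM, were *Stmn2* (0.353), *Sema4f* (0.415), *Azin2* (0.434), *Ap3b2* (0.447), *Rab11fip5* (0.447), *Rasl10b* (0.449), *Adcyap1* (0.458) and *Reep2* (0.460). The measure is of shape and not of size. *Stmn2*, a microtubule regulator of growing axons, had means of 1282, 1453 and 1457 CPM in Sham, Fracture and Fracture+PDX, and log2 fold changes of 0.18 and 0.19 against Sham. *Adcyap1*, which encodes the neuropeptide PACAP, had means of 67.9, 117 and 128 CPM, and log2 fold changes of 0.78 and 0.92.

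The 6 others had log2 fold changes between 0.15 and 0.31 against Sham. In the same ranking the injury genes stood at places 28 (*Gadd45a*), 30 (*Atf3*), 70 (*Sprr1a*), 102 (*Npy*), 270 (*Gap43*), 280 (*Ecel1*), 326 (*Gal*), 373 (*Sox11*), 3413 (*Csf1*) and 4505 (*Jun*). These profiles contain the rise against Sham by which *Alkal2* was chosen.

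**Figure D5:**
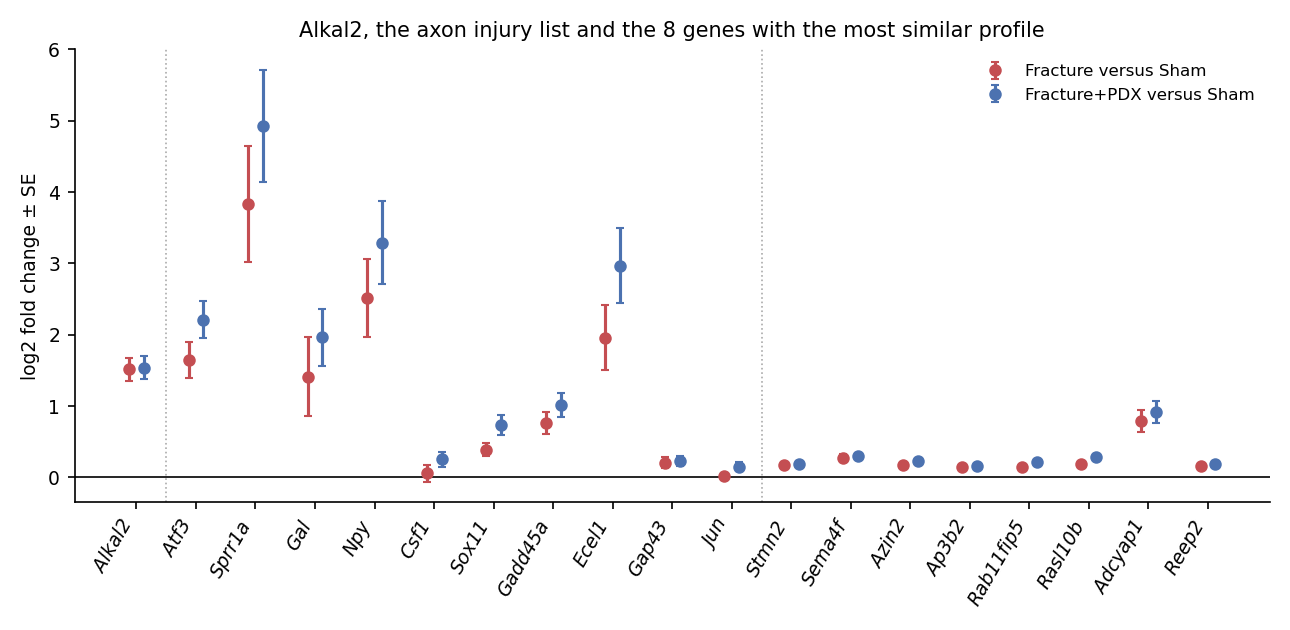
Log2 fold changes ± SE (vertical axis) of *Alkal2*, the 10 genes of the axon injury list and the 8 genes with the most similar profile, left to right and parted by dotted lines, for Fracture and Fracture+PDX against Sham (6 against 6 mice, with the Sham mice shared). *Alkal2* is at 1.51 and 1.54, the injury genes run from 0.01 to 4.93 and the 8 similar genes from 0.15 to 0.92.

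Variation between mice of 1 group was followed with deviations of log2 CPM from the group means over the 18 libraries, in 7 relations, each with a permutation test within groups. No relation of *Alkal2* to its receptors passed the test (with *Alk*, Pearson r = −0.08, permutation p = 0.796, Spearman rho = 0.09, permutation p = 0.752; with *Ltk*, r = −0.18, permutation p = 0.573, rho = −0.21, permutation p = 0.474). With *Atf3*, r was 0.34 (permutation p = 0.159) and rho 0.46 (permutation p = 0.0689), and r fell to 0.20 when the 2 libraries with the most extreme *Atf3* were left out. With the mean of the skeletal muscle list, r was 0.08 (permutation p = 0.769) and rho 0.09 (permutation p = 0.737).

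*Alk* and the mean of 5 nonpeptidergic nociceptor markers had r = 0.47 (permutation p = 0.0418, adjusted over 7 relations 0.163) and rho = 0.46 (permutation p = 0.0573, adjusted 0.17). Without the 2 libraries farthest from the median on the marker axis, this r was 0.44. *Alk* and *Ltk* had r = −0.01 (permutation p = 0.98) and rho = −0.22 (permutation p = 0.372). None of the relations given here passed the adjusted threshold, and the depth and dissection of a library enter both axes of each.

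The genes with the largest r of deviations with *Alkal2*, as a description over the 18 libraries, were *Lrpap1* (0.83), *S100a16* (0.83), *Gm35501* (0.83), *Gm20735* (0.83) and *Ak1* (0.81). Those with *Alk* were *Bmper* (0.81), *Ddx50* (0.78), *Tafa4* (0.76), *Tdrd7* (0.75) and *Cyb5b* (0.75). *Tafa4* encodes a secreted protein of a class of low-threshold C fibers. These are the largest of 15799 values over 18 libraries and are given without a test.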

How the data were processed

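RNA from L3–L5 DRG of 18 mice was sequenced as paired-end, strand-specific libraries of poly(A) RNA. The submitters' processing notes name cutadapt 1.10, FastQC, HISAT2, StringTie and the mm10 genome. The counting program and its strand setting are not given in the sources used here. The authors deposited raw counts per gene, without normalization, and FPKM values, scaled by transcript length and mapped fragments, for 36737 genes. Columns named Con were taken as Sham, the single group left.

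Counts were analysed with edgeR 4.0.16 in R 4.3.3 (filterByExpr with a minimum count of 10 and minimum total of 15, TMM, robust quasi-likelihood fits with sex and group, 12 libraries per comparison). Genes with an adjusted p under 0.05 (Benjamini-Hochberg, over every gene in the fit) were called. Log2 CPM used a prior count of 2. SE is the log2 fold change over the root of F. Single genes were tested by two-sided exact permutation, and relations with 100000 permutations (scipy 1.17.1). Labels do not tie the mice to litters, so p-values measure the spread between these mice. The fit for Fracture+PDX against Fracture was also run on simulated counts, and the outcome is not given here. One of the 7 relations is not reported here.

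The members and lists were chosen with earlier results of these data known. Named genes are the 4 members, up to 3 called genes per pathway list and comparison (else the 1 with the smallest p-value), the 10 injury genes, the 8 genes nearest to *Alkal2* by profile, and the 5 with the largest r with *Alkal2* and with *Alk*; *Acp1* is named for its overlap with *Alkal2*. RefSeq windows matched 3 of 4 members. Alternatives were DESeq2 1.42.0, upper-quartile scaling, other filters, no sex term, a replicate block, all 18 libraries, limma 3.58.1 on log2(FPKM + 1) and log2(FPKM + 0.1), each library left out and, added after seeing the data, the placenta mean as a covariate other fits of the *Alkal2* interaction and the injury list without each library.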

Additional observations from a re-analysis of the deposited data

Results flagged for a closer look

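*Alk* in male 3 of the Fracture group stood apart from the other 5 mice of its group, at 5.99 CPM against 3.43–4.30 CPM. Its gap to the nearest mouse passed Dixon's criterion, which flags about 1 in 20 groups by chance, and 12 sets of 6 mice were examined. Without this mouse the *Alk* difference of Fracture+PDX from Fracture was 0.04 on the log2 scale.

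The difference of Fracture+PDX from Fracture in *Alkal2* was larger in females than in males by 0.59 on the log2 CPM scale, and is listed for its unadjusted exact permutation p-value (p = 0.03, 400 assignments, higher in females by 0.31 and lower in males by 0.28, written as −0.28). Adjusted over the 12 such tests this p-value was 0.33, and the edgeR interaction had an adjusted p = 0.998, so a difference between the sexes was not shown.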

How the results depend on the processing

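Without any 1 library, the *Alkal2* log2 fold change ranged over 1.44–1.65 for Fracture and 1.46–1.66 for Fracture+PDX against Sham, and over 1.16–1.54 and 1.17–1.56 under the other settings, with its lowest values on log2(FPKM + 1), which compresses low genes. Between the fracture groups it ranged from −0.0396 to 0.11 without 1 library and was −0.013 with the placenta covariate. *Alk* stayed above 0 against Sham in all settings (0.36–0.57 and 0.29–0.50 without 1 library, 0.13–0.46 and 0.099–0.39 under the other settings, lowest on log2(FPKM + 1)) and never passed the adjusted threshold; between the fracture groups it ranged from −0.15 to 0.0374. *Alkal1* ranged from −0.32 to 0.0296, −0.51 to 0.23 and −0.40 to 0.36 in the 3 comparisons without 1 library, and *Ltk* from −0.11 to 0.14, −0.49 to 0.12 and −0.49 to 0.0558. For Fracture+PDX against Sham, *Alkal1* was −0.14 with the replicate block, −0.0069 on log2(FPKM + 1) and −0.087 on log2(FPKM + 0.1), and on the last scale −0.013 against Fracture. The *Alkal2* interaction of sex and PDX ranged over 0.50–0.72 (edgeR unadjusted p 0.0034–0.031) without 1 library. The sex difference of *Alkal2* ranged over 0.25–0.40 and its unadjusted exact permutation p passed 0.05 without Sham male 2 (0.29), Sham male 3 (0.30), Sham female 1 (0.25), Fracture male 1 (0.29) or Fracture+PDX male 3 (0.29). That of *Alk* ranged from −0.33 to −0.17 and its unadjusted p fell under 0.05 without Sham male 3 (−0.33) or Fracture male 2 (−0.31), and that of *Ltk* from −0.58 to −0.21. The causes were not tested.

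Counts of called genes depended on the setting. DESeq2 called 1476, 1580 and 21 genes in the 3 comparisons, and 4 and 10 genes of the ALK pathway lists against Sham. With a replicate block (equal sex and mouse number), 118, 486 and 0 genes and 0, 3 and 0 pathway genes were called. The numbers were not taken to pair the mice, since correlations of same-numbered mice ran from −0.09 to 0.14. With the placenta covariate, 1 and 0 genes were called against Sham, and *Ltk* was −2.09 for Fracture+PDX against Sham. *Alkal2*, whose contrasts with Sham carry no test, was not among the called genes. Without 1 library, 213–710, 498–1008 and 0–1 genes were called. For Fracture against Sham the count was 372 without Sham female 1, 291 without Sham female 2, 253 without Sham male 2, 245 without Sham male 3, 378, 380 and 287 without Fracture male 1, 2 and 3, and 213 without Fracture female 2. For Fracture+PDX against Sham it was 526 without Sham female 2, 539 and 536 without Sham male 2 and 3, 498 without Fracture+PDX female 1 and 560 without Fracture+PDX male 3, and against Fracture 1 without Fracture+PDX female 3. With at least 10 counts in every library, *Alkal1* gave no value in any comparison and *Ltk* none where Fracture+PDX entered. The 2 to 38 counts of *Alkal1* and *Ltk* limit what can be seen of them, and intervals cover the spread between these mice.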
